A study of Homo sapiens with 28 samples.

Results

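XDH, ZSCAN12P1, AGT, TMEM165, FAM19A4 and RLN1 are 6 of the 25369 genes in exon-count tables from LNCaP cells under endoplasmic reticulum (ER) stress. They were chosen by their measured values, for moving in the same direction with a chemical inhibitor of the stress kinase PERK and with each of 2 siRNAs against it, with no numeric threshold. The changes in those 3 comparisons are therefore a description and are not tested below. Of the 14314 genes tested, 332 were called higher and 336 lower in all 3 of these comparisons, and 19 and 6 of them also changed by at least 2-fold in each. All 6 genes chosen passed the filter on low counts.

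RNA was sequenced from LNCaP, an androgen-responsive line established from a human prostate cancer metastasis, in 28 libraries that form 7 groups of 4. All cells were transfected with an siRNA and treated 2 days later for 18 h, and the series' design text describes 4 independent experiments. In 3 groups the cells received tunicamycin (TM, 2.5 µg/mL) with PERK blocked: by 100 nM of the inhibitor GSK2606414 together with the control siRNA (TM PERKi siCtrl), or by either of the PERK siRNAs (TM siPERK-1, TM siPERK-3). Another 2 groups received TM with an siRNA against the transcription factor ATF4 (TM siATF4-2, TM siATF4-3). The last 2 groups carried the control siRNA and received TM alone (TM siCtrl) or the solvent (DMSO siCtrl). No group was untransfected, no inhibitor or targeting siRNA was given without TM, and all replicates are cultures of 1 line. GSK2606414 is known to bind some other kinases too, RIPK1 and KIT among them.

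Tunicamycin stops N-glycosylation, so that proteins misfold in the ER and the unfolded protein response begins. PERK, encoded by EIF2AK3, is one sensor of that response. It phosphorylates the translation factor eIF2α, which lowers general protein synthesis but raises the synthesis of ATF4, an activator of amino acid and stress genes. The sensors IRE1 and ATF6 act beside PERK and raise chaperones and degradation factors. The genes described here have unlike products. XDH encodes xanthine oxidoreductase, the enzyme that makes uric acid at the end of purine breakdown. AGT encodes angiotensinogen, the secreted precursor of the angiotensin hormones. RLN1 encodes relaxin-1, a peptide hormone known for its expression in the prostate, and FAM19A4 (current symbol TAFA4) encodes a secreted chemokine-like protein. TMEM165 encodes a Golgi membrane protein needed for manganese balance and glycosylation, whose loss causes a congenital disorder of glycosylation. ZSCAN12P1 is a pseudogene of the zinc finger gene ZSCAN12.

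In hg19 coordinates from the tables, XDH lies at chr2:31557188-31637611 (minus strand, 36 exons) and AGT at chr1:230838272-230850336 (minus strand, 5 exons). RLN1 lies at chr9:5334932-5339873 (minus strand, 2 exons) and FAM19A4 at chr3:68780915-68981761 (minus strand, 6 exons). TMEM165 lies at chr4:56262080-56292342 (plus strand, 7 exons) and ZSCAN12P1 at chr6:28058585-28063493 (plus strand, 2 exons). No exon of these genes overlapped an exon of another gene in the tables. Reads can still be shared between similar transcripts. Of the 50-base words in the GENCODE transcripts of RLN1, 15.6% also occurred in RLN2, its neighbouring copy, and 4.86% of those of AGT occurred in AL512328.1. The shares were 0.474% for TMEM165 and 0.0622% for ZSCAN12P1, while XDH and FAM19A4 shared none. By this measure the split of reads between RLN1 and RLN2 was the least certain, and reads of AGT can be shared too. For ZSCAN12P1 the check covered 1608 words, where its counted exons span 4055 bases, so part of that gene was not checked.

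The promoters below, the 250 bases before each RefSeq start in GRCh38.p14 read 5′ to 3′ on the gene's strand, are shown for their motif matches and for the likeness of RLN1 and RLN2. XDH (chr2:31414743-31414992, minus strand), AGT (chr1:230714123-230714372, minus strand) and TMEM165 (chr4:55395707-55395956, plus strand) are set beside the pair RLN1 (chr9:5339877-5340126, minus strand) and RLN2 (chr9:5304717-5304966, minus strand). Capitals mark matches, on either strand, to TGATGNAA (core of the composite element of ATF4 and C/EBP factors), TGACGT (core of the cAMP response element), CCAAT (the CCAAT box) and CCACG (one end of the ER stress element).
XDH: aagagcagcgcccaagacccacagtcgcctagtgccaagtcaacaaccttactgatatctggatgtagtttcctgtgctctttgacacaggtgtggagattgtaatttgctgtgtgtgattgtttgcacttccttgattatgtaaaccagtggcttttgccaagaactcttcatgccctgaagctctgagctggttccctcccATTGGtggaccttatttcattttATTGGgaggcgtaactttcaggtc
AGT: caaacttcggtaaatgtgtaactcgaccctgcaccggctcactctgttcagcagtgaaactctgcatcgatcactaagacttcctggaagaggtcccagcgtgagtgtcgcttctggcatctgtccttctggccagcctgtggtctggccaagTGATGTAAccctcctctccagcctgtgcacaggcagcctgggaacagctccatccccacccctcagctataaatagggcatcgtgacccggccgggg
TMEM165: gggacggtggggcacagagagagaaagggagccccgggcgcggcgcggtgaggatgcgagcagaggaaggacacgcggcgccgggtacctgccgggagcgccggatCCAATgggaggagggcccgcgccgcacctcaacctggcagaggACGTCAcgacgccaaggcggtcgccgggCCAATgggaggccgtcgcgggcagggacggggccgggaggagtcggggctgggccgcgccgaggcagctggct
RLN1: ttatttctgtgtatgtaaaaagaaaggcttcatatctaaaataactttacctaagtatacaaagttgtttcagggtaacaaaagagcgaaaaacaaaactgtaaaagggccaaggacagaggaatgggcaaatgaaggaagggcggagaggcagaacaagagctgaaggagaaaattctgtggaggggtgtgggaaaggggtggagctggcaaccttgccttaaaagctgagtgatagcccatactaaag
RLN2: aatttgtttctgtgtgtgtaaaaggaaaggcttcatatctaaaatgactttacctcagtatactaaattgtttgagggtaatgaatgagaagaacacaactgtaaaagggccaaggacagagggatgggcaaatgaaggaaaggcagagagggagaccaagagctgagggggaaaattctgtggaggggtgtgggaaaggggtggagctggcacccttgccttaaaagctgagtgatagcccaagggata
AGT had 1 match to TGATGNAA, 97 bases before its start, and 3.14% of 35116 promoter windows of the same length held one. XDH had 2 CCAAT boxes, 47 and 24 bases before its start, and TMEM165 had 2, at 144 and 73 bases. A CCAAT match stood in 32% of all windows. TMEM165 also had 1 TGACGT match at 101 bases, a motif found in 7.1% of windows. FAM19A4, whose promoter is not printed, had 1 CCAAT match at 65 bases and 2 overlapping CCACG matches at 115 and 112 bases, the second motif being in 33.5% of windows. RLN1 and RLN2 held none of these letters and matched each other at 221 of 249 aligned positions (88.8%, with 2 gap positions). These matches describe the sequence and do not show binding.

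Library totals ran between 10794637 and 17253801 counts. The siRNAs lowered their targets below TM siCtrl. EIF2AK3 stood at 24.6 and 21.5 CPM (normalised counts, scaled by library size and TMM) with siPERK-1 and siPERK-3. It had 89.2 CPM in TM siCtrl and 30.2 CPM in DMSO siCtrl. ATF4 stood at 237.3 and 114.1 CPM with siATF4-2 and siATF4-3, against 1511 CPM in TM siCtrl and 605.4 CPM in DMSO siCtrl. With the inhibitor, siPERK-1 and siPERK-3 the ATF4 mRNA stood at 1415, 1415 and 1158 CPM. None of these was called against TM siCtrl (edgeR, log2 changes -0.09 ± 0.15, -0.10 ± 0.15 and -0.38 ± 0.15, adjusted p = 0.657, 0.685 and 0.0554). The words PERK blocked and ATF4 silenced name the treatments, and both mRNAs stayed detectable with their siRNAs. EIF2AK3 shares exons with LOC101928371, and with the inhibitor it stood at 125.1 CPM. All 9 luminal prostate markers were detected, at summed levels of 2690 to 7260 CPM, while 6 basal markers summed to 1.02 to 5.01 CPM (TP63 at 0 in all libraries), 7 fibroblast markers to 14.4 to 41.5 CPM (COL1A2 at 0) and 6 leukocyte markers to 4.36 to 8.27 CPM. The luminal sum itself was 2690 to 3010 CPM in TM PERKi siCtrl, 3200 to 3690 CPM over both siPERK groups, 3920 to 4250 CPM in TM siATF4-2, 4290 to 4520 CPM in TM siATF4-3, 3350 to 3670 CPM in TM siCtrl and 6170 to 7260 CPM in DMSO siCtrl. The fibroblast sum was 15.5 to 24.1 CPM in TM siATF4-2 and 14.4 to 21.5 CPM in TM siATF4-3, against 33.2 to 39.7 CPM in TM siCtrl and 18.5 to 22.7 CPM in DMSO siCtrl. Most of that sum was COL1A1, at 18.8 and 16.9 CPM in the ATF4 groups and 35.6 CPM in TM siCtrl. COL3A1 was higher with siATF4-2 than in TM siCtrl, at 0.653 against 0.299 CPM. The luminal sum joined genes of opposite change too. From DMSO siCtrl to TM siCtrl KLK3 fell from 2640 to 431 CPM. KRT8 rose from 405 to 862 CPM and KRT18 from 385 to 805 CPM. The part of either sum in the results below was not tested. In bulk RNA, fewer cells expressing a gene and less RNA per cell cannot be told apart. The libraries numbered 4, 1 in each group, tended to stand further from the others of their groups: chi-square per degree of freedom was 3.439 to 8.03 in pairs with one of them and 1.692 to 5.092 in the other pairs. RLN1 was highest in the library numbered 4 in 7 of 7 groups, TMEM165 in 4, AGT and ZSCAN12P1 in 3 each, XDH in 2 and FAM19A4 in 1. For the 6 genes, results are therefore given without these libraries wherever that changes a call. For other genes they are not given.

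In the 3 comparisons that chose the genes, XDH, ZSCAN12P1, AGT, FAM19A4 and RLN1 were higher and TMEM165 was lower. In none did the 2 groups' libraries overlap, which the choice itself favours, and the share of all genes without overlap was not counted. Among all genes tested, 35.7% were called with the inhibitor (18.2% higher, 17.5% lower), 26.4% with siPERK-1 (13.1% higher, 13.3% lower) and 26.8% with siPERK-3 (13.1% higher, 13.7% lower). ZSCAN12P1 had the largest fold of the 6 with the inhibitor, at 5.07-fold, and RLN1 had the largest with the siRNAs, at 4.58-fold with siPERK-1 and 4.01-fold with siPERK-3. The smallest change was that of XDH with siPERK-1, at 2.04-fold. On the log2 scale the inhibitor and both siRNAs gave TMEM165 nearly equal values of -1.48 ± 0.13, -1.52 ± 0.13 and -1.43 ± 0.13 (SE), whereas XDH spread over 2.1 ± 0.08, 1.03 ± 0.09 and 1.40 ± 0.08.

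**Figure D1:**
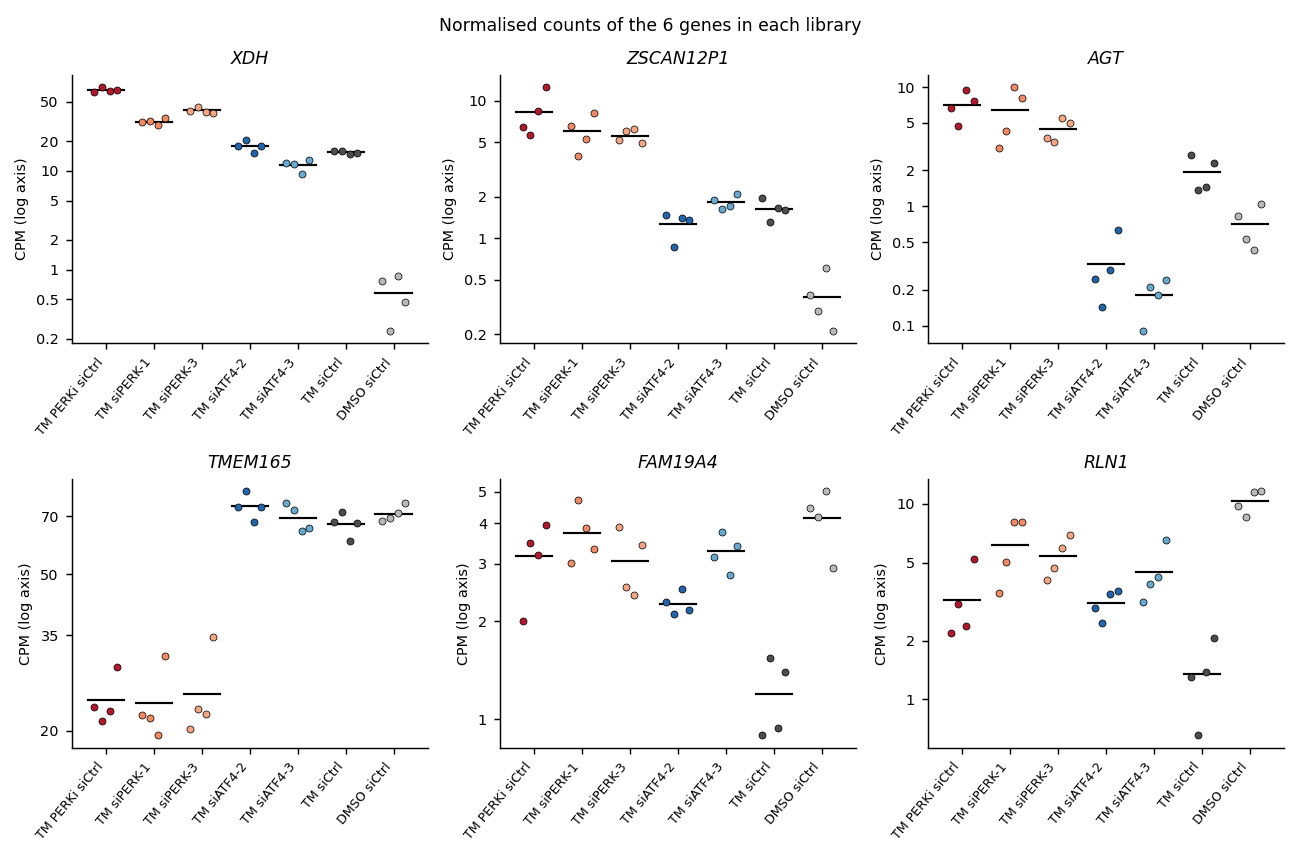
TMM-scaled CPM (log axis) of XDH, ZSCAN12P1, AGT, TMEM165, FAM19A4 and RLN1 in each of 28 libraries, with 1 point per library, replicates 1 to 4 from left to right in a group, and a bar at the group mean. TMEM165 lies between 19.5 and 34.6 CPM in the 12 libraries with PERK blocked and between 60.6 and 81.2 CPM in the other libraries, while FAM19A4 and RLN1 are lowest in TM siCtrl.

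The same 6 genes differed in the comparisons that did not choose them. TM siCtrl against DMSO siCtrl shows the effect of tunicamycin. It and both comparisons of an ATF4 siRNA with TM siCtrl use the same TM siCtrl libraries as the choice did, so they are not independent of it. XDH, ZSCAN12P1 and AGT rose, FAM19A4 and RLN1 fell, and TMEM165 was not called. That is 5 of 6 called (3 higher, 2 lower) where 69.0% of all genes tested were called (34.3% higher, 34.7% lower), and the median log2 change was 0.67 for the 6 against 0.01 for all genes. With siATF4-2 against TM siCtrl, 3 were called higher and 1 lower, where 55.6% of all genes were called (28.4% higher, 27.2% lower). With siATF4-3 against TM siCtrl, 2 were called higher and 2 lower, where the share of all genes was 61.9% (31.2% higher, 30.7% lower). The medians were 0.18 and 0.11, and -0.00 for all genes in both. The members' shares are thus near the background in each.

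Against DMSO siCtrl, which uses no library of the choice, TM siATF4-2 had 2 of the 6 called higher and 2 lower, where 59.7% of all genes were called (29.7% higher, 30.0% lower). TM siATF4-3 against DMSO siCtrl likewise had 2 higher and 2 lower, where 57.4% were called (28.1% higher, 29.3% lower). Between the ATF4 siRNAs, TM siATF4-3 against TM siATF4-2, XDH was the one gene called, lower, where 14.7% of all genes were called (6.20% higher, 8.53% lower). The medians over the 6 were -0.40, -0.17 and 0.21, and -0.00, -0.01 and -0.01 over all genes. All adjusted p-values are from edgeR's quasi-likelihood test over all genes, two-sided, and a call is an adjusted p under 0.05.

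XDH was nearly silent without stress and rose with tunicamycin, also where ATF4 was silenced. Its levels were 15.8, 16.0, 14.7 and 15.1 CPM in TM siCtrl and 0.768, 0.239, 0.857 and 0.476 CPM in DMSO siCtrl, where it had 4 to 14 counts per library. This was a 26.3-fold rise (log2 change 4.70 ± 0.16, adjusted p = 3.04e-26). All 4 TM siCtrl libraries lay above all 4 DMSO siCtrl libraries, with a gap wider than the spread within either group.

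XDH was higher still with PERK blocked. It stood at 62.3, 70.8, 64.7 and 66.0 CPM in TM PERKi siCtrl. The siRNA groups had 31.0, 31.5, 29.3 and 33.8 CPM (TM siPERK-1) and 40.6, 44.5, 39.4 and 38.5 CPM (TM siPERK-3). The 3 groups did not overlap one another: all inhibitor libraries were above all siPERK-3 libraries, and those were above all siPERK-1 libraries.

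The ATF4 siRNAs moved XDH in unlike ways. TM siATF4-2 had 18.0, 20.4, 15.2 and 17.9 CPM and TM siATF4-3 had 12.1, 11.7, 9.33 and 13 CPM. With siATF4-3 XDH fell below TM siCtrl with no overlap (-0.42 ± 0.10, adjusted p = 0.000359). With siATF4-2 it was called slightly higher (0.22 ± 0.09, adjusted p = 0.0418), with overlapping libraries, and that call was lost without the libraries numbered 4 (0.19, adjusted p = 0.108) and without TM siATF4-2 replicate 2 alone (0.14, adjusted p = 0.216). The difference between TM siATF4-3 and TM siATF4-2 was -0.63 ± 0.10 (adjusted p = 1.16e-05), with no overlap. Both ATF4 groups stayed far above DMSO siCtrl, by 30.6-fold with siATF4-2 (4.92 ± 0.16, adjusted p = 9.78e-27) and 19.7-fold with siATF4-3 (4.28 ± 0.17, adjusted p = 3.43e-23). Ordered from high to low, the groups ran TM PERKi siCtrl, TM siPERK-3, TM siPERK-1, TM siATF4-2, TM siCtrl, TM siATF4-3 and DMSO siCtrl, and of these neighbours TM siATF4-2 and TM siCtrl alone overlapped.

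XDH works in purine breakdown and depends on the molybdenum cofactor. Of 19 other genes of these pathways, 16 were tested. With tunicamycin 3 rose and 8 fell (median log2 change -0.37), where 34.3% of all genes were called higher and 34.7% lower. In either direction the share was near the 69.0% called among all genes. The risers included MOCOS, the sulfurase that activates the cofactor of XDH (2.40 ± 0.13, adjusted p = 4.90e-14), and AOX1, aldehyde oxidase, a relative of XDH with the same cofactor (2.85 ± 0.40, adjusted p = 4.09e-08). PNP, the phosphorylase that feeds hypoxanthine into this route, fell (-1.37 ± 0.07, adjusted p = 8.34e-21). MOCOS averaged 24.6 CPM with siATF4-3 and 50.5 CPM with siATF4-2, against 185 CPM in TM siCtrl, and fell with each (-2.91 ± 0.14 and -1.88 ± 0.13, adjusted p = 1.25e-14 and 1.43e-11). AOX1 fell too, by 3.94 ± 0.53 and 1.98 ± 0.38 on the log2 scale (adjusted p = 2.50e-08 and 2.45e-05). XDH had no such fall with siATF4-2. In all, 9 of the 16 rose and 2 fell with each ATF4 siRNA, where 55.6% (siATF4-2) and 61.9% (siATF4-3) of all genes were called, 28.4% and 31.2% higher.

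With PERK blocked, 5, 3 and 6 of these 16 genes rose with the inhibitor, siPERK-1 and siPERK-3, and 2, 2 and 1 fell, where 35.7%, 26.4% and 26.8% of all genes were called in either direction. PNP rose in all 3 (0.49 ± 0.07, 0.77 ± 0.07 and 0.79 ± 0.07, the highest adjusted p being 3.68e-07). MOCOS rose with the inhibitor (0.37 ± 0.11, adjusted p = 0.0136) and fell with siPERK-1 (-0.51 ± 0.12, adjusted p = 0.00239) and siPERK-3 (-0.61 ± 0.12, adjusted p = 0.000468). The gene that activates the XDH cofactor thus moved in opposite directions with the inhibitor and the siRNAs, under which XDH itself was higher in every library.

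AGT rose with tunicamycin and fell to a few reads when ATF4 was silenced. It had 2.68, 1.37, 1.45 and 2.32 CPM in TM siCtrl and 0.823, 0.537, 0.428 and 1.06 CPM in DMSO siCtrl, a 2.75-fold rise without overlap (1.43 ± 0.45, adjusted p = 0.00708). With TM siATF4-2 it had 0.246, 0.145, 0.295 and 0.641 CPM and with TM siATF4-3 0.0901, 0.213, 0.179 and 0.243 CPM. These levels rest on 17 and 9 counts summed over 4 libraries, against 123 in TM siCtrl and 51 in DMSO siCtrl.

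AGT was thus lower than TM siCtrl with both ATF4 siRNAs, with no overlap. The test gave -2.56 ± 0.58 for siATF4-2 (adjusted p = 0.000601) and -3.35 ± 0.68 for siATF4-3 (adjusted p = 0.000129). As ratios of summed counts per summed library total, TM siCtrl was 5.79-fold higher than TM siATF4-2 (95% exact binomial interval 3.47 to 10.3) and 10.1-fold higher than TM siATF4-3 (5.16 to 22.7), intervals that cover counting error only. Against DMSO siCtrl the difference was -1.13 ± 0.70 for siATF4-2 and was not called (adjusted p = 0.176). For siATF4-3 it was -1.92 ± 0.82 and just passed (adjusted p = 0.0496). Without the libraries numbered 4 the siATF4-3 difference was -1.82 (adjusted p = 0.230), it kept its call in 1 of 8 fits that each left out a library, and over all alternatives its adjusted p ran from 0.00403 to 0.230. The ATF4 siRNAs did not differ detectably at this depth (-0.79 ± 1.03, adjusted p = 0.683).

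With PERK blocked AGT was above TM siCtrl in every library. It stood at 6.67, 4.67, 9.52 and 7.62 CPM in TM PERKi siCtrl, 3.08, 4.30, 10.1 and 8.11 CPM in TM siPERK-1 and 3.72, 3.49, 5.55 and 4.98 CPM in TM siPERK-3. The 3 groups overlapped, and the spread within siPERK-1 (SD 3.25 around 6.39 CPM) was the widest. AGT is the one gene of the 6 that the ATF4 siRNAs brought below TM siCtrl with both oligos while it was higher with PERK blocked. The order from high to low was TM PERKi siCtrl, TM siPERK-1, TM siPERK-3, TM siCtrl, DMSO siCtrl, TM siATF4-2 and TM siATF4-3, with breaks below TM siPERK-3 and below TM siCtrl and overlap between all other neighbours.

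Angiotensinogen is cleaved by proteases into peptides that act on receptors. Of 17 other genes of this system 8 were tested. AGTR1, AGTR2, ENPEP and CTSG had no counts in any library. With tunicamycin 3 of the 8 rose and 5 fell (median -0.17), where 69.0% of all genes were called. CTSD, the lysosomal protease cathepsin D (0.88 ± 0.07, adjusted p = 1.23e-12), and LNPEP, an aminopeptidase that binds an angiotensin fragment (0.72 ± 0.06, adjusted p = 5.41e-13), rose.

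With siATF4-2 1 of the 8 rose and 4 fell, and with siATF4-3 2 rose and 4 fell. Among all genes 55.6% and 61.9% were called, 28.4% and 31.2% higher and 27.2% and 30.7% lower. CTSD fell with both (-0.78 ± 0.07 and -0.97 ± 0.07, adjusted p = 7.23e-11 and 3.17e-13). ATP6AP2, which encodes a membrane protein linked to the vacuolar proton pump, fell as well (-0.51 ± 0.05 and -0.72 ± 0.05, adjusted p = 9.24e-11 and 4.78e-15). With PERK blocked 2, 2 and 2 of the 8 rose and 2, 2 and 1 fell, in the order inhibitor, siPERK-1 and siPERK-3, where 35.7%, 26.4% and 26.8% of all genes were called. LNPEP rose in each (0.53 ± 0.06, 0.24 ± 0.06 and 0.21 ± 0.06, the highest adjusted p being 0.0105).

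RLN1 fell with tunicamycin and stood between the levels of TM siCtrl and DMSO siCtrl in every arm with PERK or ATF4 blocked. It had 1.31, 0.654, 1.38 and 2.06 CPM in TM siCtrl and 9.77, 8.59, 11.5 and 11.6 CPM in DMSO siCtrl. The fall was 7.68-fold (-2.95 ± 0.30, adjusted p = 4.14e-09), with no overlap. With PERK blocked it stood at 2.19, 3.06, 2.38 and 5.23 CPM in TM PERKi siCtrl, 3.51, 5.05, 8.09 and 8.11 CPM in TM siPERK-1 and 4.06, 4.68, 5.97 and 6.94 CPM in TM siPERK-3.

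RLN1 was also higher with the ATF4 siRNAs than in TM siCtrl, the baseline against which it was chosen. TM siATF4-2 had 2.95, 2.46, 3.47 and 3.60 CPM and TM siATF4-3 had 3.15, 3.91, 4.22 and 6.56 CPM. Against TM siCtrl these were rises of 2.31-fold (1.22 ± 0.38, adjusted p = 0.00904) and 3.30-fold (1.74 ± 0.36, adjusted p = 0.000184), with no overlap in either. Both remained below DMSO siCtrl (-1.73 ± 0.27 and -1.21 ± 0.26, adjusted p = 4.90e-06 and 0.000248). The difference between the ATF4 siRNAs was 0.52 ± 0.32 and was not called (adjusted p = 0.311), but the alternative edgeR fit with the replicate number as a block called it (adjusted p = 0.0426). In order of level DMSO siCtrl was clear of the rest, TM siPERK-1, TM siPERK-3, TM siATF4-3, TM PERKi siCtrl and TM siATF4-2 each overlapped their neighbour, and TM siCtrl was clear at the bottom. Without the libraries numbered 4, which held the highest RLN1 of each group, all 5 RLN1 calls remained, with -3.16 for tunicamycin (adjusted p = 7.03e-12) and 1.41 and 1.76 for the ATF4 siRNAs against TM siCtrl (adjusted p = 0.000648 and 2.58e-05).

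RLN2, which encodes the main circulating relaxin and lies 30320 bases from RLN1 on the same strand, had the pattern most like that of RLN1. Per kilobase of exon, the 2 genes had similar levels without stress, 10.3 ± 1.45 CPM per kb for RLN1 and 10.2 ± 0.979 for RLN2 in DMSO siCtrl (SD, n = 4). In TM siCtrl RLN1 had 1.34 ± 0.572 and RLN2 3.18 ± 0.847 CPM per kb. RLN2 fell with tunicamycin (-1.68 ± 0.17, adjusted p = 6.12e-11) and rose with siATF4-2 (0.79 ± 0.20, adjusted p = 0.000775) and siATF4-3 (0.94 ± 0.20, adjusted p = 7.22e-05). It also rose with siPERK-1 (1.25 ± 0.18, adjusted p = 2.54e-06) and siPERK-3 (1.02 ± 0.19, adjusted p = 0.000101). With the inhibitor RLN2 overlapped TM siCtrl (0.36 ± 0.21, adjusted p = 0.193), where RLN1 did not. Whether the changes of RLN1 and RLN2 differ was not tested, and since they share 50-base words, part of either signal can come from the other. RLN2 was the only one of 10 other relaxin family hormones and receptors with enough counts to test, and the relaxin receptors RXFP1, RXFP2, RXFP3 and RXFP4 had group means of at most 0.0933 CPM.

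**Figure D2:**
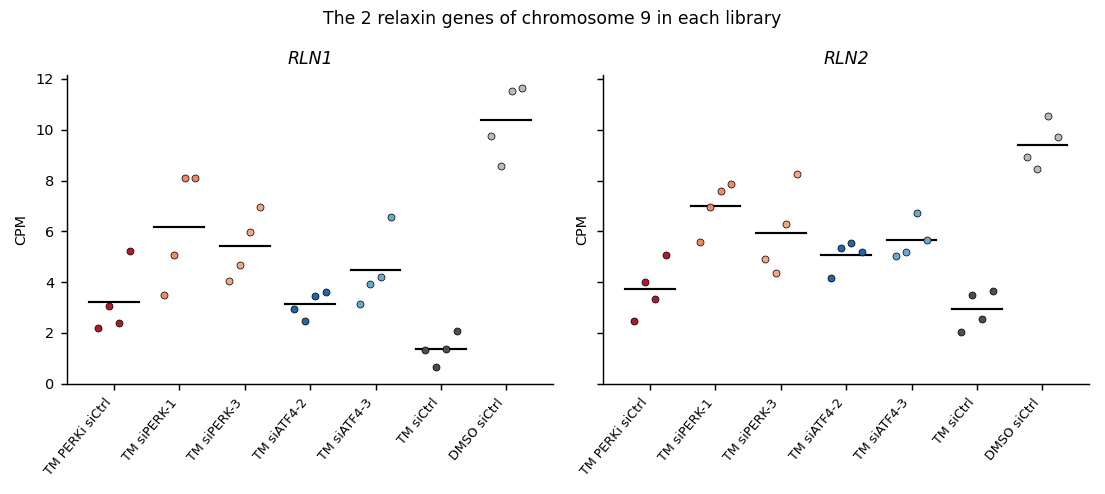
TMM-scaled CPM of RLN1 and RLN2 in each of 28 libraries (1 point per library, bar at the group mean, both axes from 0). Both are lowest in TM siCtrl and highest in DMSO siCtrl, and the other 5 groups lie between them.

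FAM19A4, at low counts, also fell with tunicamycin. It had 0.892, 1.55, 0.944 and 1.39 CPM in TM siCtrl and 4.45, 4.18, 5.02 and 2.91 CPM in DMSO siCtrl, a 3.46-fold fall with no overlap (-1.77 ± 0.21, adjusted p = 1.24e-09). It was higher again with PERK blocked, at 2.01, 3.48, 3.20 and 3.96 CPM in TM PERKi siCtrl, 3.01, 4.71, 3.86 and 3.32 CPM in TM siPERK-1 and 3.89, 2.56, 2.40 and 3.43 CPM in TM siPERK-3. These 3 groups overlapped one another and DMSO siCtrl, though TM PERKi siCtrl and TM siPERK-3 did so only through the DMSO siCtrl library at 2.91 CPM.

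FAM19A4 was higher with both ATF4 siRNAs than in TM siCtrl, which again is the baseline of the choice. TM siATF4-2 had 2.29, 2.1, 2.51 and 2.16 CPM and TM siATF4-3 had 3.15, 3.77, 2.78 and 3.40 CPM, all above TM siCtrl. The rises were 1.90-fold (0.91 ± 0.25, adjusted p = 0.00172) and 2.74-fold (1.45 ± 0.23, adjusted p = 8.50e-07). Against DMSO siCtrl FAM19A4 was lower with siATF4-2 (-0.86 ± 0.20, adjusted p = 0.000225). With siATF4-3 the difference of -0.32 ± 0.18 missed the threshold (adjusted p = 0.140). Without the libraries numbered 4 it passed (-0.48, adjusted p = 0.0334), and leaving out DMSO siCtrl replicate 4 alone gave -0.46 (adjusted p = 0.0296). The ATF4 siRNAs did not overlap, but their difference of 0.54 ± 0.21 missed the threshold (adjusted p = 0.0840). Ordered from high to low, each of DMSO siCtrl, TM siPERK-1, TM siATF4-3, TM PERKi siCtrl, TM siPERK-3 and TM siATF4-2 overlapped the next, and TM siCtrl was clear below them.

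Of 7 other genes of the FAM19A family and its receptors, FAM19A2 and LRP1 could be tested. FAM19A2, at 1.34 CPM or less in all group means, fell with tunicamycin (-0.93 ± 0.34, adjusted p = 0.0146) and rose with siATF4-2 and siATF4-3 (1.31 ± 0.34 and 1.35 ± 0.34, adjusted p = 0.00109 and 0.000745). It was not called with the inhibitor or either PERK siRNA. LRP1, an endocytic receptor, fell with siATF4-2 (-0.37 ± 0.10, adjusted p = 0.00156) and rose with siPERK-3 (0.30 ± 0.09, adjusted p = 0.0141), and was not called with siATF4-3 against TM siCtrl, the inhibitor, siPERK-1 or tunicamycin. FPR1, a receptor described for the FAM19A4 protein, had group means of at most 0.147 CPM, and FPR2 had no counts in any library.

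TMEM165 was the gene of the 6 that was lower with PERK blocked, and it was called in none of the 6 comparisons that did not choose it. It stood at 23.0, 21.2, 22.5 and 29.0 CPM in TM PERKi siCtrl, 22.0, 21.5, 19.5 and 31.0 CPM in TM siPERK-1 and 20.2, 22.7, 22.0 and 34.6 CPM in TM siPERK-3. In these 3 groups the library numbered 4 was the highest each time. The other groups had 74.0, 81.2, 67.9 and 74.1 CPM (TM siATF4-2), 75.6, 72.7, 64.2 and 65.4 CPM (TM siATF4-3), 67.8, 72.0, 60.6 and 67.5 CPM (TM siCtrl) and 68.2, 69.2, 71.5 and 75.8 CPM (DMSO siCtrl). These 4 groups overlapped one another, and each lay above all 12 libraries with PERK blocked.

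In the 6 tested comparisons the log2 changes of TMEM165 lay between -0.10 ± 0.12 (TM siATF4-3 against TM siATF4-2, adjusted p = 0.670) and 0.15 ± 0.12 (TM siATF4-2 against TM siCtrl, adjusted p = 0.306). With tunicamycin the change was -0.09 ± 0.12 (adjusted p = 0.528), and with siATF4-3 against TM siCtrl it was 0.05 ± 0.12 (adjusted p = 0.731). The folds of group means were between 0.935 and 1.11 in all 6. Per kilobase TMEM165 was the most abundant of the 6 genes in DMSO siCtrl, at 34.3 ± 1.62 CPM per kb, and in TM PERKi siCtrl, at 11.5 ± 1.67, its level per kb equalled that of XDH (11.5 ± 0.624). Its neighbour CLOCK, which lies 1725 bases away on the other strand and shares most of the few common words, stood at 56.6, 37.2 and 44.5 CPM with the inhibitor, siPERK-1 and siPERK-3, against 51.5 CPM in TM siCtrl.

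TMEM165 acts in the Golgi beside manganese and calcium pumps, zinc and manganese carriers, glycosyltransferases and the COG tethering complex. All 19 other genes of that list were tested. With tunicamycin 13 rose and 2 fell (median 0.60), where 34.3% of all genes were called higher and 34.7% lower, and 4 were not called, like TMEM165 itself. ATP2C2, a Golgi calcium and manganese pump, rose by 1.99 ± 0.09 (adjusted p = 7.70e-17) and SLC39A14, a metal importer, by 1.14 ± 0.05 (adjusted p = 1.28e-21), while its relative SLC39A8 fell (-1.18 ± 0.09, adjusted p = 1.77e-13). With siATF4-2 and siATF4-3, 3 and 2 of the 19 rose and 9 and 10 fell, where 28.4% and 31.2% of all genes were called higher and 27.2% and 30.7% lower. ATP2C2 fell with both (-1.87 ± 0.09 and -2.57 ± 0.10, adjusted p = 3.42e-15 and 5.27e-18), as did the galactosyltransferase B4GALT1 (-0.85 ± 0.05 and -1.09 ± 0.05, adjusted p = 2.35e-17 and 4.24e-21), whose exons overlap an antisense gene. SLC39A8 rose with both (1.16 ± 0.09 and 1.37 ± 0.09, adjusted p = 1.51e-12 and 1.58e-14).

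With PERK blocked the inhibitor raised 5 of the 19 and lowered 2, siPERK-1 raised 2 and lowered 7, and siPERK-3 raised 2 and lowered 5, where 35.7%, 26.4% and 26.8% of all genes were called. ATP2C2 fell with both siRNAs (-0.80 ± 0.09 and -0.74 ± 0.09, adjusted p = 1.21e-07 and 4.06e-07). SLC39A8 rose with both (0.47 ± 0.09 and 0.48 ± 0.09, adjusted p = 0.000204 and 0.000162), and SLC39A14 rose with the inhibitor (0.66 ± 0.05, adjusted p = 4.30e-13). COG5, a COG subunit whose exons overlap other genes, rose with the inhibitor (0.30 ± 0.06, adjusted p = 8.69e-05) and fell with siPERK-1 and siPERK-3 (-0.43 ± 0.06 and -0.42 ± 0.06, adjusted p = 7.25e-07 and 1.00e-06).

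ZSCAN12P1 rose with tunicamycin and did not change detectably with ATF4 silencing. It had 1.96, 1.31, 1.67 and 1.59 CPM in TM siCtrl and 0.384, 0.298, 0.612 and 0.211 CPM in DMSO siCtrl, a 4.34-fold rise with no overlap (2.11 ± 0.39, adjusted p = 1.14e-05). With PERK blocked it stood at 6.49, 5.61, 8.43 and 12.6 CPM in TM PERKi siCtrl, 6.52, 3.96, 5.25 and 8.19 CPM in TM siPERK-1 and 5.16, 6.05, 6.21 and 4.90 CPM in TM siPERK-3. These groups overlapped one another, and the inhibitor library at 12.6 CPM was the highest of all.

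With ATF4 silenced ZSCAN12P1 had 1.47, 0.869, 1.40 and 1.36 CPM (TM siATF4-2) and 1.89, 1.64, 1.70 and 2.1 CPM (TM siATF4-3). Neither differed from TM siCtrl beyond the spread (-0.36 ± 0.32 and 0.16 ± 0.30, adjusted p = 0.351 and 0.658). Both were above DMSO siCtrl with no overlap (1.75 ± 0.42 and 2.28 ± 0.40, adjusted p = 0.000577 and 7.51e-06). The siRNAs' own libraries did not overlap, but their difference was not called (0.52 ± 0.33, adjusted p = 0.317). The order of levels had 3 tiers, with the PERK arms on top, the ATF4 arms and TM siCtrl in the middle and DMSO siCtrl at the bottom, and the neighbours within each tier overlapped.

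ZSCAN12P1 begins 1244 bases beyond the end of ZNF165, a zinc finger gene on the same strand (chr6:28048482-28057340), a neighbour looked up after the values were seen. ZNF165 averaged 17.5 ± 1.53 CPM in TM siCtrl and 5.67 ± 0.212 CPM in DMSO siCtrl and rose with tunicamycin (1.62 ± 0.10, adjusted p = 3.02e-18). It rose further with the inhibitor, siPERK-1 and siPERK-3 (1.29 ± 0.08, 0.89 ± 0.08 and 0.88 ± 0.08, the highest adjusted p being 5.13e-11), to 42.9 ± 3.09, 32.4 ± 2.65 and 32.2 ± 3.86 CPM. It fell with siATF4-2 and siATF4-3 (-0.42 ± 0.09 and -0.45 ± 0.09, adjusted p = 0.000110 and 4.57e-05). ZSCAN12P1 thus moved with the gene before it under tunicamycin and PERK blockade. Per 100 counts of ZNF165, ZSCAN12P1 had 19.1 ± 5.80, 18.4 ± 5.21 and 17.4 ± 2.18 counts in TM PERKi siCtrl, TM siPERK-1 and TM siPERK-3. It had 9.84 ± 2.32 and 14.3 ± 0.795 in TM siATF4-2 and TM siATF4-3, 9.49 ± 2.46 in TM siCtrl and 6.59 ± 2.85 in DMSO siCtrl. ZSCAN12P1 was chosen for its rise with PERK blocked, which favours a higher ratio in those 3 groups than in TM siCtrl. Differences in the ratio were not tested, and in DMSO siCtrl it rests on 4 to 10 ZSCAN12P1 counts per library. Whether reads of ZSCAN12P1 come from transcripts that begin in ZNF165 was not tested.

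Of 12 other SCAN and zinc finger genes of this chromosome 6 cluster, 11 were tested. With tunicamycin 7 rose and 1 fell (median 0.31), where 34.3% of all genes were called higher and 34.7% lower. In either direction the share was near the 69.0% called among all genes. With the inhibitor 4 rose and none fell, where 35.7% of all genes were called, and with siPERK-1 and siPERK-3 ZNF165 alone was called, higher, where 26.4% and 26.8% were. ZSCAN12, from which the pseudogene derives, shared 1 of its 50-base words and had another pattern. Its means were 18.0, 16.1 and 15.6 CPM in TM PERKi siCtrl, TM siPERK-1 and TM siPERK-3 and 17.5 CPM in TM siCtrl. With the ATF4 siRNAs it rose to 31.3 and 36.0 CPM (0.84 ± 0.08 and 1.04 ± 0.08, adjusted p = 4.79e-11 and 7.01e-14).

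**Figure D3:**
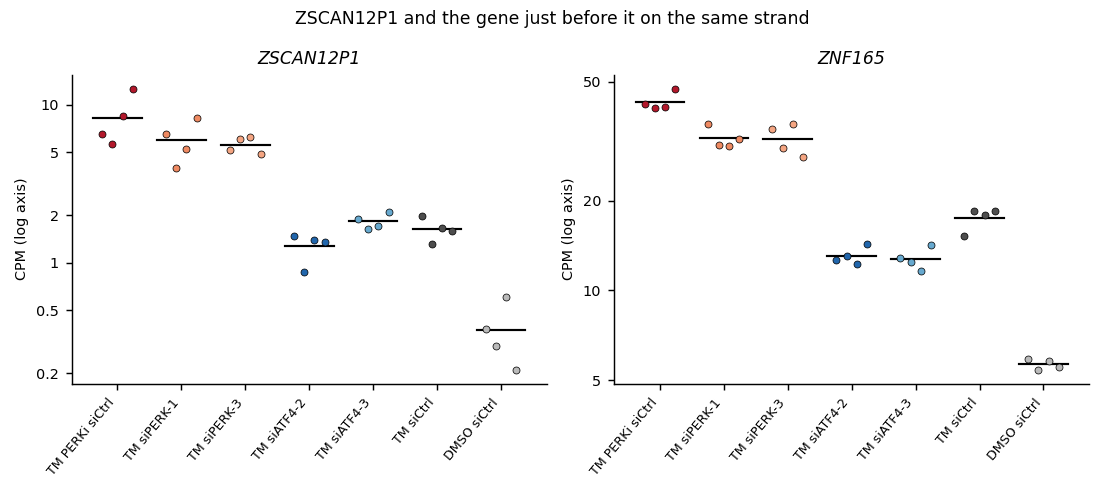
TMM-scaled CPM (log axes) of ZSCAN12P1 and ZNF165, which ends 1244 bases before it, in each of 28 libraries (1 point per library, bar at the group mean). Both are lowest in DMSO siCtrl and highest in the 3 groups with PERK blocked, and ZNF165 is lower in the ATF4 groups (11.7 to 14.3 CPM) than in TM siCtrl (15.2 to 18.5 CPM).

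For each gene, the 2 tested genes of most similar pattern were found over the 7 group means of log2 CPM, each centred on its mean, by the root mean square (RMS) difference among the 12032 or 12033 other genes tested whose log2 CPM averaged 1 or more. They were chosen for these means, so their levels are a description. XDH, with an RMS change of 2.00 over the groups, was closest to MTUS2 (RMS difference 0.47) and PEAR1 (0.49). MTUS2, a microtubule-associated protein, averaged 12.2, 4.83 and 5.42 CPM in TM PERKi siCtrl, TM siPERK-1 and TM siPERK-3, 2.09 and 1.63 CPM in TM siATF4-2 and TM siATF4-3, 3.30 CPM in TM siCtrl and 0.0997 CPM in DMSO siCtrl. ZSCAN12P1 (1.32) was closest to DERL3 (0.28) and SEL1L (0.40), which both encode parts of the machinery that removes misfolded proteins from the ER. DERL3, whose exons overlap SMARCB1, averaged 108, 77.7 and 82.1 CPM in the inhibitor, siPERK-1 and siPERK-3 groups, 19.3 and 16.6 CPM with siATF4-2 and siATF4-3, 25.5 CPM in TM siCtrl and 5.01 CPM in DMSO siCtrl.

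AGT (1.70) had the least close matches by this difference, FUT3 (0.66), a fucosyltransferase, and LTF (0.68), which encodes lactoferrin. The difference is not scaled to a gene's own RMS change, and AGT had only 17 and 9 summed counts in TM siATF4-2 and TM siATF4-3. FUT3 averaged 9.77 CPM in TM PERKi siCtrl, 1.71 and 0.547 CPM in TM siATF4-2 and TM siATF4-3, and 9.19 CPM in TM siCtrl, so that it lacked the higher level of AGT with PERK blocked. TMEM165 (0.77) had the closest, YIF1A (0.09), a protein of vesicle transport between ER and Golgi, and TMEM179B (0.19). YIF1A averaged 25.1 ± 1.73, 24.6 ± 3.37 and 29.0 ± 5.95 CPM in TM PERKi siCtrl, TM siPERK-1 and TM siPERK-3, 80.8 ± 8.40 and 83.1 ± 4.53 CPM in TM siATF4-2 and TM siATF4-3, 69.2 ± 3.82 CPM in TM siCtrl and 71.4 ± 4.82 CPM in DMSO siCtrl. Its exons overlapped no other gene's, while those of TMEM179B overlapped TMEM223. FAM19A4 (0.52) was closest to DDC (0.27), the enzyme that makes dopamine from DOPA, with exons that overlap LOC100129427, and to PIM2 (0.28), a kinase. DDC averaged 19.0, 23.0 and 22.8 CPM in the inhibitor, siPERK-1 and siPERK-3 groups, 19.2 and 22.8 CPM with siATF4-2 and siATF4-3, 14 CPM in TM siCtrl and 32.0 CPM in DMSO siCtrl. RLN1 (0.84) was closest to RLN2 (0.37) and to TMSB15A (0.40), an actin-binding thymosin that averaged 1.27 CPM in TM siCtrl and 6.92 CPM in DMSO siCtrl.

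**Figure D4:**
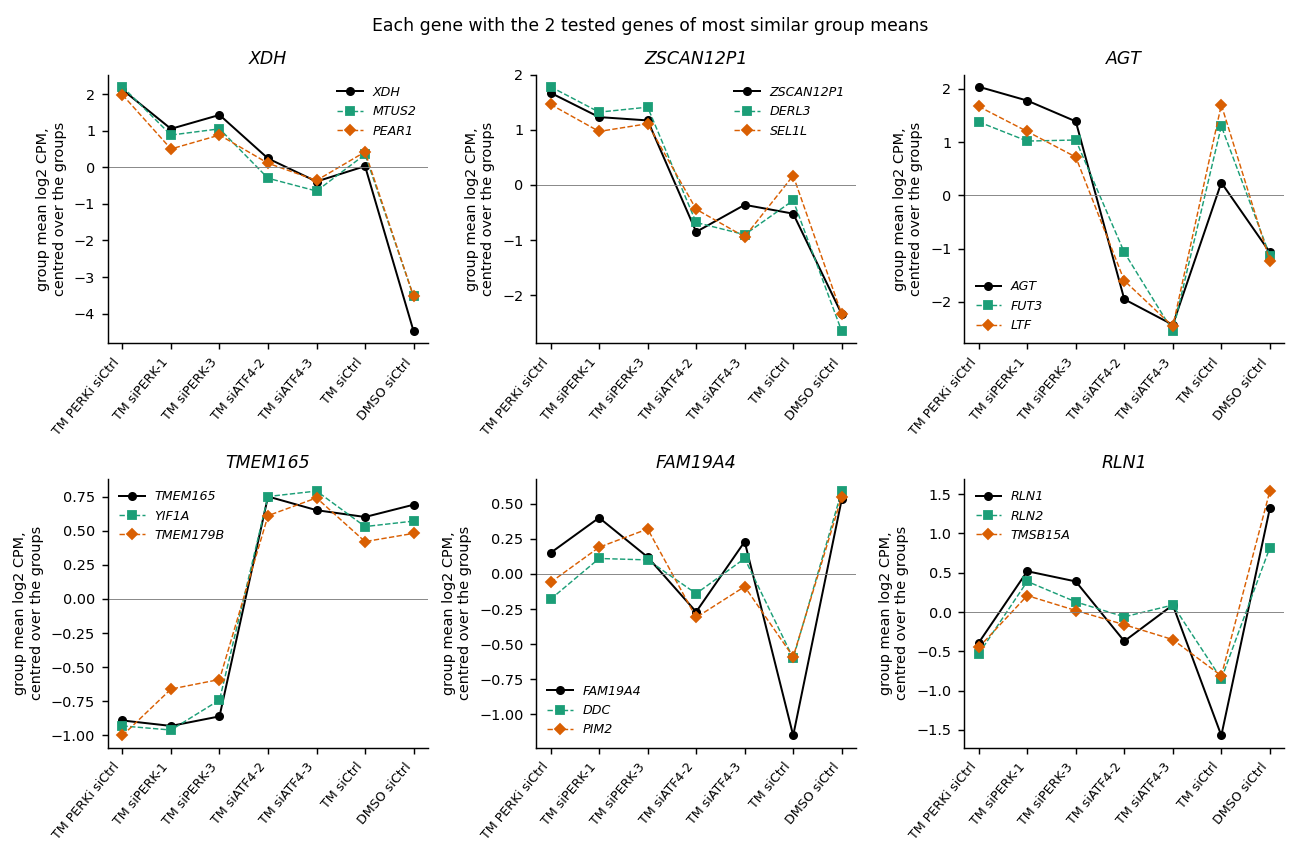
Group means of log2 CPM, centred over the 7 groups, for each of the 6 genes (black circles) and the 2 tested genes with the smallest RMS difference from it (green squares, then orange diamonds). YIF1A runs closest, 0.09 from TMEM165, and FUT3 and LTF run farthest, 0.66 and 0.68 from AGT.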

How the data were processed

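Per the labels' protocols, RNA of LNCaP cells was made into strand-specific libraries. The deposited values are raw counts of reads per gene, in 6 tables over hg19. The submitters' processing notes name DESeq2 1.10.1, featureCounts 1.5.0-p1 and TopHat2 2.1.0. The sources used here do not give the annotation or say whether counting used the strand. TM siCtrl columns stand in several tables; their copies differed in 0 values, and each library entered once. The tables' 1 unnamed line had 0 counts and was dropped. No pair of replicates was as close as sampling noise (lowest chi-square per degree of freedom 1.692).

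Groups came from the sample labels. All 28 libraries entered 1 edgeR 4.0.16 fit (R 4.3.3; limma 3.58.1) with group means, TMM factors, filterByExpr (minimum count 10, minimum total 15), the robust quasi-likelihood F-test and Benjamini-Hochberg adjustment over 14314 genes in each comparison. The test was checked on simulated counts first. SE was approximated as |log2 change| over the root of the F statistic. Gene and promoter sequence facts are from GENCODE v29 and RefSeq (GRCh38.p14), and 5 of the 6 genes, with RLN2, matched a promoter entry, ZSCAN12P1 not. Other scalings (RLE, upper-quartile), no filter, DESeq2 1.42.0, limma-voom, the compared groups alone, a replicate block, each library left out and, chosen after seeing the data, replicates 1 to 3 alone were tried.

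The 6 genes, the pathway lists and the tests were chosen with earlier results of these data known. The text names the 6 genes, EIF2AK3 and ATF4, up to 3 called genes per list and comparison with the largest change, the 2 genes of closest pattern to each, and RLN2. Named outside this rule, after their values were seen, were ZNF165 where it is a neighbour, CLOCK, and ZSCAN12 with PERK blocked. So were KRT8 and KRT18 with tunicamycin, and genes of a list given as not detected or not called. Some genes that this rule would name are not reported here.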

Additional observations from a re-analysis of the deposited data

Results flagged for a closer look

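TMEM165 stood at 34.6 CPM in TM siPERK-3 replicate 4, apart from the other 3 libraries of that group at 20.2, 22.7 and 22.0 CPM. Among 42 sets of 4 libraries (6 genes in 7 groups) it was the one with a single library apart by Dixon's criterion at the 95% level, and chance flags about 1 in 20 such sets. The library still lay below all 16 libraries without PERK blockade, and without the libraries numbered 4 the log2 change against TM siCtrl was -1.63 in place of -1.43.

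XDH differed between the ATF4 siRNAs. The change against TM siCtrl was -0.42 with siATF4-3 and 0.22 with siATF4-2, and the tested difference between the oligos was -0.63 ± 0.10 (edgeR, adjusted p = 1.16e-05, -0.71 to -0.55 over its alternatives, lower in 4 of 4 libraries). ATF4 itself averaged 114.1 CPM in TM siATF4-3 libraries, against 237.3 CPM in TM siATF4-2. The part of that in the XDH difference was not tested.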

How the results depend on the processing

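For the 6 genes, 36 tested results gave 573 values under the alternatives, of which 548 kept direction and side of the threshold, 21 lost the call, 4 gained it and 0 reversed. The 288 values of the comparisons that chose the genes kept their direction, and the 144 counts of called genes stayed within 1.5 times. For RLN2, EIF2AK3, ATF4 and genes of the lists, 169 results gave 2701 values. Of these 2616 kept direction and side of the threshold, 76 lost the call, 9 gained it and 0 reversed. XDH with siATF4-2 against TM siCtrl lost its call with upper-quartile factors (0.18), limma-voom (0.21), the compared groups alone (0.21) and replicates 1 to 3 (0.19), and over fits that each left out a library it ran between 0.14 and 0.29 (adjusted p 0.00986 to 0.216), called in 2 of 8. AGT with siATF4-3 against DMSO siCtrl lost its call with RLE factors (-1.91), no filter (-1.92), limma-voom (-1.71) and replicates 1 to 3 (-1.82), and ran between -2.09 and -1.66 with a library left out (adjusted p 0.0423 to 0.142), while DESeq2 called it at 0.00403. Where the compared groups alone were fitted, AGT was below the filter in the 3 comparisons among DMSO siCtrl and the ATF4 groups. FAM19A4 with siATF4-3 against DMSO siCtrl gained a call with replicates 1 to 3 (-0.48) and ran between -0.46 and -0.22 with a library left out. FAM19A4 with siATF4-3 against siATF4-2 gained one with the compared groups alone (0.55, adjusted p = 0.0440). The causes were not tested.

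With the replicate number as a block, RLN1 with siATF4-3 against siATF4-2 was called at the same 0.52 (adjusted p = 0.0426), no other call of the 6 genes changed, and counts of called genes grew 1.04 to 1.37 times. Deviations of same-numbered libraries correlated by -0.01 to 0.30 (median 0.09) and those of other numbers by -0.19 to 0.12 (median -0.03). Same-numbered libraries were thus slightly more alike, but the labels do not say that a number marks an experiment. Depth limits AGT under the ATF4 siRNAs (17 and 9 summed counts) and ZSCAN12P1 and XDH in DMSO siCtrl (26 and 41).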
